A study of Capra hircus with 10 samples.

Results

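The splicing factor genes examined here were the protein-coding goat genes whose symbol begins with HNRNP, with SRSF and a digit, with SF3A or SF3B and a digit, or with SNRP. There were 51 such genes, with 163 transcripts, among 20587 protein-coding gene symbols in the transcript table. They were 11 SR proteins (serine and arginine rich), 19 heterogeneous nuclear ribonucleoproteins (hnRNPs), 9 subunits of the SF3A and SF3B complexes, 8 Sm ring proteins and 4 further proteins of the U1 or U2 small nuclear ribonucleoproteins (snRNPs). The members were picked by symbol, but this set of symbols was proposed with earlier results of these data known. Total RNA from whole ovaries of Anhui white goats was compared between 5 ovaries in the luteal phase and 5 ovaries in the follicular phase, with 1 ribosomal RNA-depleted, strand-specific library per ovary. The ovaries came from a slaughterhouse, no treatment is stated, and the age of the goats and the way the phase was judged were not given in the sources used here. Each value is an FPKM, a fragment count divided by transcript length and by the mapped fragments of the ovary. The FPKM of all transcripts of a symbol were summed to give the level of the gene. The sums include transcripts whose RefSeq identifier begins with XR_, the prefix of non-coding models. Such a transcript was the most abundant of SF3B1 (40.5% of the gene FPKM in the luteal and 25.8% in the follicular phase), SRSF10 (36.4% and 36.9%) and HNRNPDL (37.0% and 40.8%). Where 5 values are given for a phase, they are those of ovaries 1 to 5 in that order, and means are given as luteal against follicular, with the SD over the 5 ovaries.

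Introns are removed from a new transcript by the spliceosome, which is built on each intron from snRNPs, particles of a small nuclear RNA and proteins. The U1 snRNP recognises the donor splice site, and the U2 snRNP, with its SF3A and SF3B subunits, binds the branch point near the acceptor site. SR proteins bind exonic enhancers and mostly promote the use of nearby splice sites, whereas many hnRNPs bind silencers and oppose them, so the balance of both families sets which exons are kept. In the ovary, growing follicles and the corpus luteum both depend on high rates of gene expression, and oocytes store large amounts of spliced mRNA.

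The labelled phases were checked against markers of ovarian cell types. The summed FPKM of 6 luteal cell markers was between 5865 and 8030.0 in the luteal phase ovaries and between 161 and 192 in the follicular phase ovaries. The ovaries are mixtures of cell types, so for every gene here fewer cells of a type and less RNA per cell cannot be told apart. The luteal phase ovaries also held more endothelium marker FPKM (6 genes, 192 to 248 against 84.7 to 98.6) and less smooth muscle marker FPKM (5 genes, 538 to 967 against 1176 to 1486). The summed FPKM of 10 oocyte markers was 8.71 to 20.6 in the luteal and 16.9 to 49.1 in the follicular phase, that of 8 granulosa cell markers 163 to 740.2 and 285 to 1256, that of 3 theca cell markers 54.9 to 110.4 and 165 to 233, and that of 12 proliferation markers 112 to 198 and 147 to 299. None of these lists was at 0, and 6 of 6 luteal cell, 6 of 6 endothelium, 5 of 5 smooth muscle, 6 of 10 oocyte, 4 of 8 granulosa cell, 2 of 3 theca cell and 5 of 12 proliferation markers differed between the phases, against 43.7% of all genes tested. Of 8 stroma markers 3 were higher in the luteal and 2 in the follicular phase, and of 5 tested immune cell markers 1 was higher in the luteal phase. The part of these cell types in the differences of the splicing factor genes was not tested.

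Taken as a sum, the splicing factor genes were lower in the luteal phase. Their summed FPKM was 4011, 4345, 3676, 3889.7 and 3841 in the luteal and 5091, 5997, 4866, 5287 and 4946 in the follicular phase ovaries. Every follicular phase ovary was above every luteal phase ovary, with means of 3952 ± 250.2 and 5238 ± 454 (SD, n = 5 ovaries per phase). This was 0.873 ± 0.0415% of the FPKM of all protein-coding genes in the luteal and 1.096 ± 0.0602% in the follicular phase. Without HNRNPA1, the most abundant member, the sum was 2992 to 3507 in the luteal and 3669 to 4521 in the follicular phase, again without overlap.

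All 51 genes passed the filter on low values, and the lowest FPKM of any of them in any ovary was 4.41. Genes were tested with limma on log2(FPKM + 0.1), luteal minus follicular, two-sided, and a gene was called at a Benjamini-Hochberg adjusted p under 0.05 over all 15359 genes tested. In this test 28 of the 51 genes (54.9%) were called higher in the follicular phase, against 27.8% of all genes tested. Only HNRNPH2 (1.96%) was called higher in the luteal phase, against 15.9% of all genes tested, and 22 genes were not called. The log2 fold change was negative for 47 of 51 genes, against 62% of all genes tested. Its median was -0.31 over the members and -0.14 over all genes tested, a difference of -0.17 between the medians. No member changed by more than 2-fold, since the log2 fold changes lay between -0.90 and 0.36. For 22 members every follicular phase ovary was above every luteal phase ovary, against 17.2% of all genes tested, for no member was every luteal phase ovary above (11.2% of all genes tested), and for 29 the ranges overlapped. The p-values measure the spread between these ovaries only. The calls depended on the scaling between ovaries: with the log values of the ovaries brought to 1 common median, 17 members were called higher in the follicular phase, against 19.9% of all genes tested, and HNRNPH2 in the luteal phase. Over all genes tested, 36.3% of the calls were higher in the luteal phase, against 48.8% after that shift and 52.5% after conversion to TPM (FPKM divided by its sum over the ovary).

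**Figure D1:**
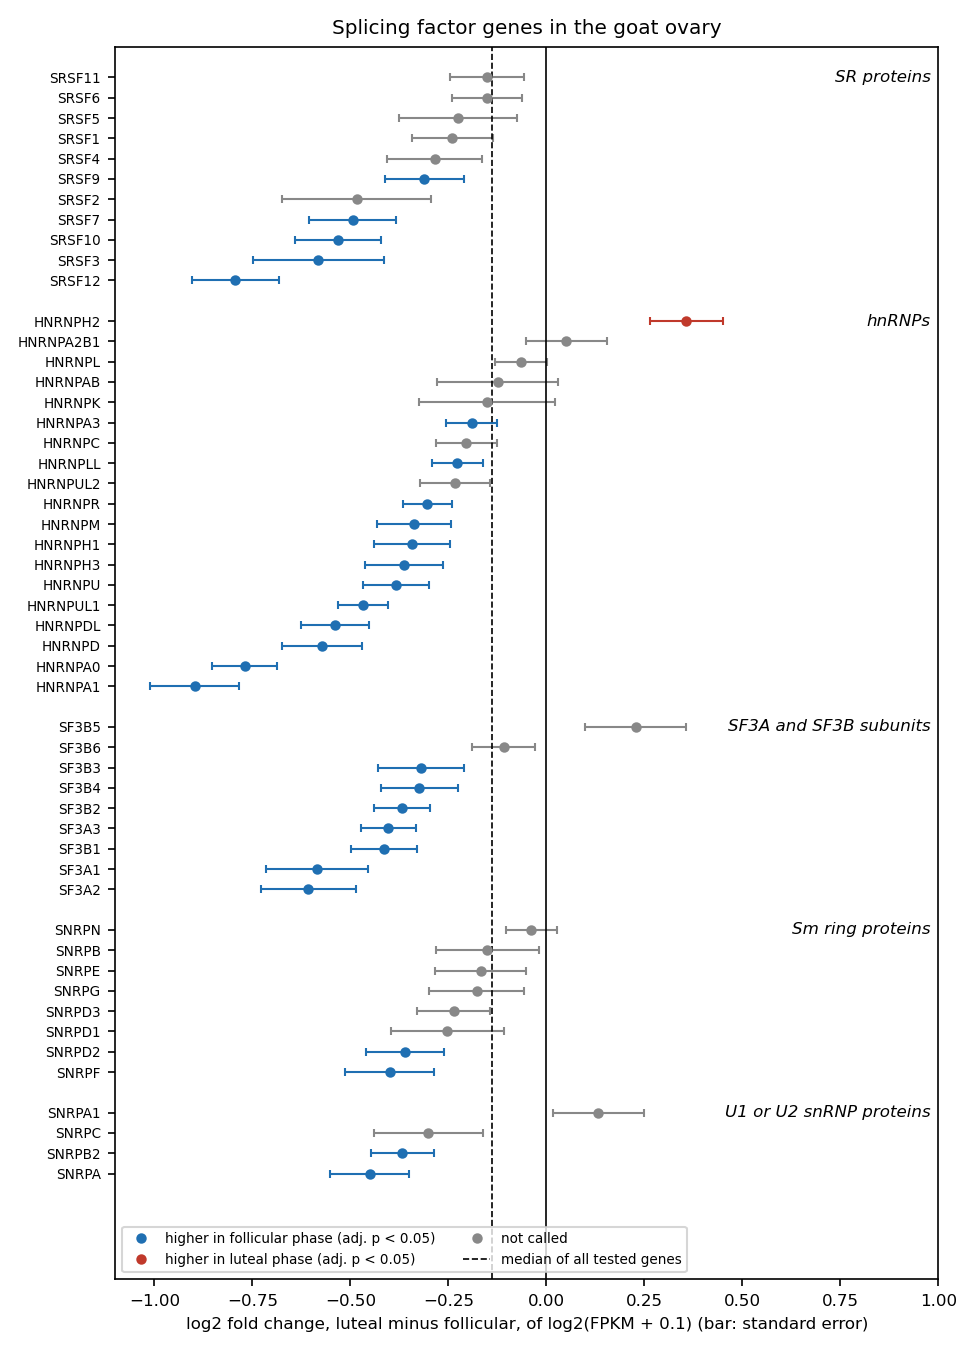
Log2 fold change, luteal minus follicular, of log2(FPKM + 0.1) for each of the 51 splicing factor genes, by group (5 ovaries per phase; bars are standard errors; the dashed line is the median of all genes tested, -0.14). Of the genes, 28 were called higher in the follicular phase (blue), 1, HNRNPH2, in the luteal phase (red), and 22 were not called (grey).

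The groups are given beside the share of all genes tested that was higher in the follicular phase, 27.8%, and the median of all genes tested, -0.14. Among the SF3A and SF3B subunits 7 of 9 genes were higher in the follicular phase (median log2 fold change -0.37), among the hnRNPs 12 of 19 (-0.30), among the SR proteins 5 of 11 (-0.31), among the U1 or U2 snRNP proteins 2 of 4 (-0.33), and among the Sm ring proteins 2 of 8 (-0.21). The share of the Sm ring proteins (25.0%) was close to that of all genes tested, and the differences between the groups were not tested. After subtraction of the mean of each gene over the 10 ovaries, the median log2 level of the 51 members ran from -0.27 in luteal phase ovary 3 to -0.09 in luteal phase ovary 2, and from 0.07 in follicular phase ovary 5 to 0.31 in follicular phase ovary 2. The same median over all genes tested lay between -0.09 and -0.04 in the luteal ovaries and between 0.0025 and 0.11 in the follicular ovaries. In 2 groups the phases overlapped. The medians of the Sm ring proteins in follicular phase ovaries 3 and 5 (-0.08 and -0.05) were below those in luteal phase ovaries 2 and 4 (0.02 and -0.03), and that of the U1 or U2 snRNP proteins in follicular phase ovary 3 (-0.0070) was below that in luteal phase ovary 2 (0.0053). Of the 51 members, 29 had their highest value in follicular phase ovary 2 and 13 in follicular phase ovary 1, against 15.1% and 14.6% of all genes tested. Their lowest value was in luteal phase ovary 3 for 26 and in luteal phase ovary 4 for 11, against 12.6% and 14.6% of all genes tested. Follicular phase ovary 2 also had the largest summed FPKM of all transcripts, 540124 against 452508 to 529042 in the other ovaries, and the part of this in the member values was not tested. Without luteal phase ovary 3 and follicular phase ovary 2, 25 members were called higher in the follicular phase and HNRNPH2 in the luteal phase, against 28.9% and 16.5% of all genes tested. The median log2 fold change was then -0.23 over the members and -0.15 over all genes tested, and the difference between these medians shrank from -0.17 to -0.079. These 2 ovaries were chosen after the values were seen. They held the lowest luteal and the highest follicular median of the members, so the choice itself favours a smaller difference.

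**Figure D2:**
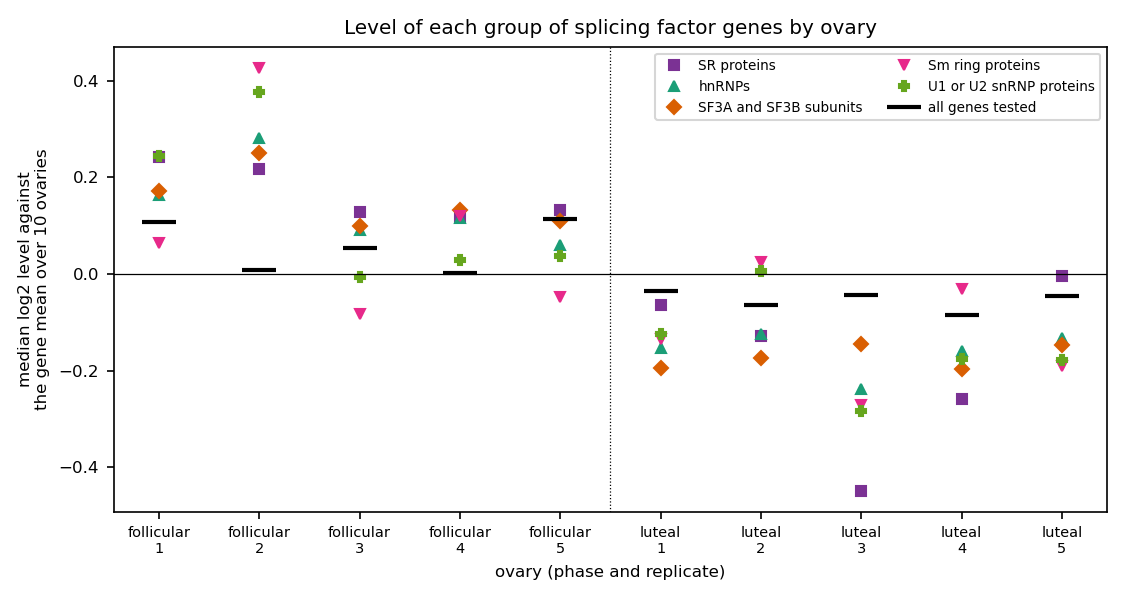
Median log2 level of each of the 5 groups of splicing factor genes in each of the 10 ovaries, relative to the mean of each gene over the 10 ovaries; black bars are the median over all 15359 genes tested. The SF3A and SF3B subunits, hnRNPs and SR proteins were above 0 in every follicular phase ovary and below 0 in every luteal phase ovary. The SR proteins were only just below 0 in luteal phase ovary 5, at -0.0040. The Sm ring proteins crossed 0 in follicular phase ovaries 3 and 5 and in luteal phase ovary 2. The U1 or U2 snRNP proteins crossed it in follicular phase ovary 3 and luteal phase ovary 2 by less than 0.01.

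Among the SR proteins, SRSF12, known to counteract other SR proteins in the choice of splice sites, had the largest difference. Its FPKM was 7.23, 6.62, 5.40, 6.62 and 7.01 in the luteal and 12.96, 9.37, 12.7, 11.5 and 10.9 in the follicular phase ovaries. All follicular phase ovaries were above all luteal phase ovaries, and the means were 6.58 ± 0.708 in the luteal and 11.5 ± 1.46 in the follicular phase (log2 fold change -0.79, SE 0.11, limma adjusted p = 0.000267). SRSF10 is an SR protein that acts as a splicing repressor once dephosphorylated. It reached 168, 147, 118, 115 and 127 in the luteal and 189.7, 219.8, 191, 189.6 and 176 in the follicular phase ovaries, so the phases did not overlap (log2 fold change -0.53, SE 0.11, limma adjusted p = 0.00262). SRSF3, a small SR protein that also serves mRNA export, was at 109.6, 112, 73.2, 92.5 and 86.5 in the luteal and 117, 209, 129, 144 and 120.2 in the follicular phase ovaries. Its ranges did not overlap, but follicular phase ovary 2 stood well above the others and the lowest follicular phase ovary was only just above the highest luteal phase ovary (log2 fold change -0.58, SE 0.17, limma adjusted p = 0.0157). SRSF7, a close relative of SRSF3 that carries a zinc knuckle, was at 70.9, 75.3, 53.9, 72.7 and 68.9 in the luteal and 89.8, 118, 91.3, 99.4 and 83.4 in the follicular phase ovaries, without overlap (log2 fold change -0.49, SE 0.11, limma adjusted p = 0.00459). SRSF9 was at 39.6 ± 3.08 against 49.4 ± 7.42 with overlapping ranges, since follicular phase ovaries 3 and 5 were below the highest luteal phase ovary (log2 fold change -0.31, SE 0.10, limma adjusted p = 0.0267). SRSF9 lost its call when luteal phase ovary 2, 3 or 4 or follicular phase ovary 1 or 2 was left out. SRSF3 and SRSF9 lost their call after the shift to a common median, SRSF9 also as TPM, while SRSF7, SRSF10 and SRSF12 were called under each of the 3 scalings tried. SRSF7 lost its call when its most abundant transcript took the place of the sum.

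The other 6 SR proteins were not called. SRSF1, the founding member of the family and known for its role in both constitutive and alternative splicing, was at 64.4 ± 7.96 in the luteal and 75.9 ± 7.83 in the follicular phase (log2 fold change -0.24, limma adjusted p = 0.0807). SRSF2, which stays in the nucleus and binds exonic enhancers, was at 21.2, 34.5, 17.9, 21.5 and 35.7 in the luteal and 42.2, 28.8, 32.4, 37.6 and 36.7 in the follicular phase ovaries. The test of SRSF2 gave a log2 fold change of -0.48 (limma adjusted p = 0.0592). It varied most among the members within the luteal phase, with a coefficient of variation of 31.6% against a median of 10.8% over the members, and the luteal phase ovaries 2 and 5 were above follicular phase ovaries 2 and 3. SRSF6 was at 91.6 ± 11.96 against 101 ± 4.07 (log2 fold change -0.15, limma adjusted p = 0.190). These 3 genes were called higher in the follicular phase after quantile normalization. SRSF4 (log2 fold change -0.29, limma adjusted p = 0.0785), SRSF5 (log2 fold change -0.22, limma adjusted p = 0.245) and SRSF11 (log2 fold change -0.15, limma adjusted p = 0.214) were not called under any of the 3 scalings, and all 11 SR proteins had negative log2 fold changes.

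HNRNPA1, an abundant shuttling protein that binds silencers and opposes SR proteins, had the highest mean FPKM (975) and the most negative log2 fold change of the 51 genes. Its FPKM was 678, 838, 684, 623 and 592 in the luteal and 1172, 1476, 1198, 1249.8 and 1243 in the follicular phase ovaries. The lowest follicular phase ovary was well above the highest luteal phase ovary, luteal phase ovary 2, and the mean was 1.86-fold higher in the follicular phase (683 ± 94.8 against 1268 ± 121, log2 fold change -0.90, SE 0.11, limma adjusted p = 0.000139). HNRNPA1 made up 17.2 ± 1.66% of the summed FPKM of the members in the luteal and 24.2 ± 0.853% in the follicular phase. HNRNPA0, its relative that binds AU-rich elements of mRNAs, was at 13.2, 11.9, 12.7, 11.3 and 11.9 in the luteal and 21.2, 24.7, 19.5, 18.8 and 20.8 in the follicular phase ovaries. No ranges overlapped here either, and luteal phase ovaries varied little (log2 fold change -0.77, SE 0.08, limma adjusted p = 4.80e-05). HNRNPA3, a further relative, was at 59.3 ± 3.09 against 67.7 ± 4.46 with overlapping ranges (log2 fold change -0.19, SE 0.07, limma adjusted p = 0.0344). It lost its call when luteal phase ovary 1, 2 or 4 or follicular phase ovary 1, 2 or 4 was left out, and after the shift to a common median and as TPM. HNRNPA2B1, the other abundant member of the A/B type, was at 126, 129.9, 99.1, 126 and 151 in the luteal and 128, 127, 109.9, 129 and 112 in the follicular phase ovaries, and its ranges overlapped fully (log2 fold change 0.05, limma adjusted p = 0.715). HNRNPAB was at 72.7 ± 10.7 against 80.2 ± 18.4 (log2 fold change -0.12, limma adjusted p = 0.533).

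HNRNPD, known as an mRNA decay factor, and its paralog HNRNPDL lie next to each other in the RefSeq gene table for goat (assembly ARS1.2), with 0 protein-coding genes between them. HNRNPD was at 40.1, 34.4, 39.4, 31.4 and 39.7 in the luteal and 63.9, 59.6, 47.8, 48.1 and 56.3 in the follicular phase ovaries. The test of HNRNPD gave a log2 fold change of -0.57 (SE 0.10, limma adjusted p = 0.00121). HNRNPDL was at 109.6, 106, 108, 99.9 and 104 in the luteal and 149, 176, 146, 129 and 172 in the follicular phase ovaries. The test of HNRNPDL gave a log2 fold change of -0.54 (SE 0.09, limma adjusted p = 0.000645). Both neighbours were higher in every follicular phase ovary than in any luteal phase ovary, and both stayed called under each scaling. HNRNPLL, which is known for its control of exon skipping in lymphocytes, and SRSF7 are separated by 1 protein-coding gene in the same annotation. HNRNPLL was at 19.7 ± 0.595 against 23.1 ± 1.63 (log2 fold change -0.23, SE 0.07, limma adjusted p = 0.0158) and was called by the deposited scale and after quantile normalization.

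HNRNPU, which also binds chromatin and the nuclear matrix, and HNRNPUL1, which resembles it, were called under each scaling. HNRNPU was at 91.1, 95.5, 84.1, 87.7 and 99.3 in the luteal and 130.2, 137, 111, 116 and 105 in the follicular phase ovaries. The test of HNRNPU gave a log2 fold change of -0.38 (SE 0.08, limma adjusted p = 0.00403). HNRNPUL1 was at 42.8, 40.99, 40.8, 39.4 and 40.6 in the luteal and 61.1, 50.1, 57.9, 57.4 and 57.3 in the follicular phase ovaries. The test of HNRNPUL1 gave a log2 fold change of -0.47 (SE 0.06, limma adjusted p = 0.000216). In both, the phases were fully separated, whereas HNRNPUL2, the remaining relative, was at 16.9 ± 1.80 against 19.9 ± 1.82 with overlapping ranges and was not called (log2 fold change -0.23, limma adjusted p = 0.0537). HNRNPR, a relative of SYNCRIP, varied least within the luteal phase (coefficient of variation 2.07%) and was at 75.3 ± 1.56 against 93.2 ± 7.14, without overlap (log2 fold change -0.30, SE 0.06, limma adjusted p = 0.00280). HNRNPM, which binds GU-rich sequence, was at 66.5 ± 6.997 against 84.1 ± 8.82, again without overlap (log2 fold change -0.34, SE 0.09, limma adjusted p = 0.0134). The calls of HNRNPR and HNRNPM were lost after the shift to a common median, and that of HNRNPM also as TPM. With its most abundant transcript in place of the sum, the log2 fold change of HNRNPM turned to 0.26 and was not called.

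Of the 3 HNRNPH genes, whose products bind runs of guanines, HNRNPH1 and HNRNPH3 were lower and HNRNPH2 was higher in the luteal phase. HNRNPH1 was at 199, 196, 166, 173 and 179 in the luteal and 207, 289, 223, 220.5 and 222 in the follicular phase ovaries. The phases did not overlap, although follicular phase ovary 1 was close to luteal phase ovaries 1 and 2 (log2 fold change -0.34, SE 0.10, limma adjusted p = 0.0146). HNRNPH2, whose protein is nearly identical to that of HNRNPH1, was at 52.6, 49.1, 47.8, 57.2 and 39.4 in the luteal and 37.7, 40.5, 35.1, 37.6 and 39.9 in the follicular phase ovaries. It was the only member called higher in the luteal phase (log2 fold change 0.36, SE 0.09, limma adjusted p = 0.0101), and 4 of the 5 luteal phase ovaries were above every follicular phase ovary, while luteal phase ovary 5 was below follicular phase ovaries 2 and 5. The FPKM of HNRNPH2 divided by that of HNRNPH1 was 0.264, 0.251, 0.289, 0.330 and 0.2205 in the luteal and 0.182, 0.1403, 0.157, 0.1704 and 0.179 in the follicular phase ovaries, without overlap. Because these genes share much of their coding sequence, how the authors' counting divided shared reads between them could alter both values. HNRNPH2 was called under each of the 3 scalings, whereas HNRNPH1 lost its call after the shift to a common median. HNRNPH3 was at 16.8 ± 2.56 against 21.5 ± 1.40 with overlapping ranges (log2 fold change -0.36, SE 0.10, limma adjusted p = 0.0121) and lost its call as TPM and with its most abundant transcript alone.

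Among the hnRNPs that were not called, HNRNPC, which binds uridine tracts, was at 149 ± 6.69 against 173 ± 16.9 (log2 fold change -0.20, limma adjusted p = 0.0518) and was called higher in the follicular phase after quantile normalization. HNRNPK, which binds C-rich sequence, was at 165, 248, 152, 222 and 157 in the luteal and 178, 225, 172, 285 and 188 in the follicular phase ovaries. Its values spread widely within both phases, with luteal phase ovaries 2 and 4 each above at least 3 of the 5 follicular phase ovaries (log2 fold change -0.15, limma adjusted p = 0.498). HNRNPL, which binds CA repeats, was at 95.9 ± 3.01 against 100.4 ± 8.07 (log2 fold change -0.06, limma adjusted p = 0.456), and the sign of its log2 fold change turned positive after the shift to a common median and as TPM.

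The SF3A complex had all of its 3 subunits called. SF3A2 was the least abundant member, at 4.44, 4.41, 4.44, 4.48 and 5.60 in the luteal and 8.13, 8.64, 6.46, 6.02 and 6.82 in the follicular phase ovaries. The test of SF3A2 gave a log2 fold change of -0.61 (SE 0.12, limma adjusted p = 0.00223). Luteal phase ovary 5 was above the other 4 luteal phase ovaries and still below every follicular phase ovary. SF3A1 was at 6.19, 5.73, 8.24, 6.22 and 6.75 in the luteal and 12.5, 8.19, 10.3, 8.998 and 10.1 in the follicular phase ovaries, with luteal phase ovary 3 just above follicular phase ovary 2 (log2 fold change -0.59, SE 0.13, limma adjusted p = 0.004002). SF3A3 was at 27.98, 30.2, 31.6, 28.01 and 30.4 in the luteal and 43.7, 40.9, 36.5, 36.1 and 39.2 in the follicular phase ovaries, without overlap (log2 fold change -0.40, SE 0.07, limma adjusted p = 0.00107). All 3 stayed called under each scaling.

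In the SF3B complex, SF3B1, the large subunit that clamps the branch point, was at 181, 178, 221, 173 and 207 in the luteal and 244, 247, 244, 262 and 279.7 in the follicular phase ovaries. The phases did not overlap (log2 fold change -0.41, SE 0.08, limma adjusted p = 0.00258), and SF3B1 was the most abundant called subunit. SF3B2 was at 30.9 ± 1.79 against 40.02 ± 3.28, without overlap (log2 fold change -0.37, SE 0.07, limma adjusted p = 0.00191), and with SF3B1 it stayed called under each scaling. With the most abundant transcript in place of the sum neither was called, and the log2 fold change of SF3B1 turned to 0.16. SF3B4 (7.29 ± 0.869 against 9.11 ± 0.626, log2 fold change -0.32, SE 0.10, limma adjusted p = 0.0203) lost its call under each of the 3 scalings. SF3B3 (45.1 ± 2.26 against 57.05 ± 10.9, log2 fold change -0.32, SE 0.11, limma adjusted p = 0.0344), a scaffold subunit, lost its call after the shift to a common median and as TPM, and when luteal phase ovary 2, 3, 4 or 5 or follicular phase ovary 1 was left out. The smallest subunits were not called: SF3B6, which contacts the branch point, was at 127 ± 8.34 against 137 ± 13.3 (log2 fold change -0.11, limma adjusted p = 0.283), and SF3B5 was at 128, 143, 105, 125 and 99.04 in the luteal and 110.2, 121, 86.1, 110.2 and 85.03 in the follicular phase ovaries. The test of SF3B5 gave a log2 fold change of 0.23 (limma adjusted p = 0.169). SF3B5 had its 3 highest values in luteal phase ovaries 1, 2 and 4, with overlap of the phases, and was called higher in the luteal phase as TPM. SF3B6 was called higher in the follicular phase after quantile normalization.

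The 7 Sm proteins form the ring around the RNA of the U1, U2, U4 and U5 snRNPs, with SNRPN replacing SNRPB in some tissues. Only SNRPD2 and SNRPF of the 8 genes were called. SNRPD2, the most abundant of them, was at 177, 199, 169, 179 and 149 in the luteal and 207, 258, 203, 249 and 206 in the follicular phase ovaries, without overlap (log2 fold change -0.36, SE 0.10, limma adjusted p = 0.0124). SNRPF was at 69.4, 78.9, 63.6, 76.8 and 71.05 in the luteal and 97.2, 123, 77.7, 94.6 and 86.6 in the follicular phase ovaries, with follicular phase ovary 3 below the highest luteal phase ovary (log2 fold change -0.40, SE 0.11, limma adjusted p = 0.0147). Both lost their call after the shift to a common median. SNRPE, the next in abundance, was at 91.2 ± 10.3 in the luteal and 103 ± 16.9 in the follicular phase (log2 fold change -0.17, limma adjusted p = 0.257). SNRPE, SNRPD1 (63.5 ± 9.21 against 76.5 ± 16.5, log2 fold change -0.25, limma adjusted p = 0.173) and SNRPD3 (48.7 ± 4.22 against 57.6 ± 6.95, log2 fold change -0.24, limma adjusted p = 0.0589) were called higher in the follicular phase after quantile normalization, and SNRPG (37.8 ± 5.17 against 42.9 ± 7.24, log2 fold change -0.18, limma adjusted p = 0.253) was not. SNRPB was at 68.1, 74.4, 57.03, 72.6 and 61.9 in the luteal and 72.96, 103, 63.7, 73.3 and 62.5 in the follicular phase ovaries, with only follicular phase ovary 2 above the luteal range (log2 fold change -0.15, limma adjusted p = 0.373). SNRPN, its imprinted relative, was at 20.7, 21.3, 23.4, 21.97 and 23.1 in the luteal and 21.97, 21.1, 24.3, 22.5 and 23.6 in the follicular phase ovaries. The phases overlapped almost wholly (log2 fold change -0.04, SE 0.06, limma adjusted p = 0.652), and all 10 values lay between 20.7 and 24.3. The sign of the SNRPN value turned positive after the shift to a common median and as TPM. SNRPN and SNRPB proteins are closely alike, so shared reads may link their values.

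Of the U1 or U2 snRNP proteins, SNRPA, the U1-A protein that binds a stem-loop of U1 RNA, was at 14.2, 14.3, 12.6, 11.6 and 12.7 in the luteal and 21.6, 19.3, 15.6, 16.7 and 16.6 in the follicular phase ovaries. The test of SNRPA gave a log2 fold change of -0.45 (SE 0.10, limma adjusted p = 0.00446). SNRPB2, its counterpart on the U2 snRNP, was at 51.6, 53.1, 46.4, 51.2 and 48.7 in the luteal and 58.5, 75.9, 59.6, 68.98 and 62.2 in the follicular phase ovaries. The test of SNRPB2 gave a log2 fold change of -0.37 (SE 0.08, limma adjusted p = 0.00391). Both had every follicular phase ovary above every luteal phase ovary and both stayed called under each scaling. SNRPA1, the partner of SNRPB2 on U2 RNA, was at 20.4, 23.2, 19.9, 20.6 and 18.9 in the luteal and 22.9, 21.8, 14.8, 16.9 and 18.5 in the follicular phase ovaries, with overlapping phases (log2 fold change 0.13, limma adjusted p = 0.375). SNRPC, the U1-C protein that helps U1 to bind the donor site, was at 29.1, 36.4, 27.5, 29.5 and 30.98 in the luteal and 40.8, 53.5, 32.9, 32.3 and 32.8 in the follicular phase ovaries. The test of SNRPC gave a log2 fold change of -0.30 (limma adjusted p = 0.1003). Follicular phase ovary 2 held the highest value, 3 follicular phase ovaries were below luteal phase ovary 2, and of the 3 scalings SNRPC was called only after quantile normalization.

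**Figure D3:**
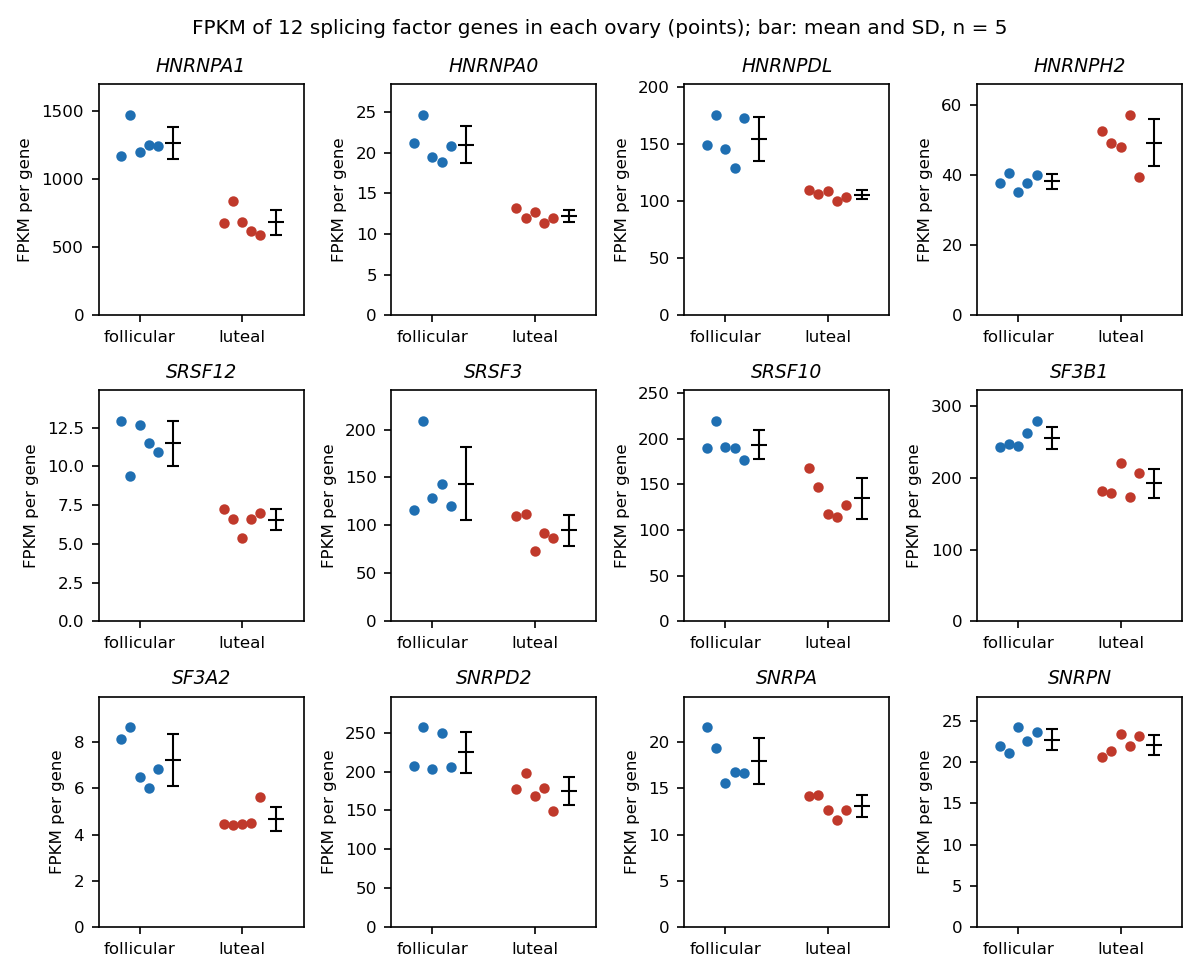
FPKM per gene in each ovary (points, 5 per phase) for 12 splicing factor genes, with the mean and SD; each axis starts at 0. HNRNPA1, HNRNPA0, HNRNPDL, SRSF12, SRSF3, SRSF10, SF3B1, SF3A2, SNRPD2 and SNRPA had no luteal phase ovary at or above a follicular phase ovary, HNRNPH2 was higher in 4 of 5 luteal phase ovaries, and the SNRPN values overlapped.

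Transcripts of the members were tested in the same way among all 32842 transcripts that passed the filter. Of the 163 member transcripts 156 were tested, 35 were called higher in the follicular phase (9.82% of all transcripts tested were) and 1 in the luteal phase (7.47%). No gene had transcripts called in both directions. In either direction the 36 calls were 23.1% of the member transcripts tested, against 17.3% of all transcripts tested. They became 18 (11.5% against 14.6%) after the shift to a common median and 23 (14.7% against 14.05%) as TPM. After quantile normalization there were 42 (26.9% against 16.8%). Of these calls, those higher in the follicular phase were 16 after the shift (10.3% of the member transcripts against 6.18% of all transcripts), and 20 as TPM (12.8% against 5.73%). After quantile normalization 41 were higher in the follicular phase (26.3% against 8.57%). The transcript called higher in the luteal phase was XM_005700142.3 of HNRNPH2, at 41.9 ± 5.76 against 33.2 ± 1.69 (log2 fold change 0.32, SE 0.10, limma adjusted p = 0.0435). HNRNPA1 had 2 called transcripts of 4: XM_005679851.3, which held 88.03% of the FPKM of the gene in the luteal and 86.95% in the follicular phase, was at 602 ± 86.4 against 1103 ± 111 (log2 fold change -0.88, limma adjusted p = 0.000454). XM_005679849.3 was at 58.9, 72.3, 59.7, 55.4 and 51.5 in the luteal and 129, 153, 127, 127 and 142 in the follicular phase ovaries, a 2.28-fold higher mean in the follicular phase and the smallest adjusted p of the member transcripts (log2 fold change -1.19, SE 0.10, limma adjusted p = 3.79e-05). SRSF10 had 4 called transcripts of 7, all higher in the follicular phase. Some transcripts were called although the gene was not. In HNRNPC, 3 of 12 transcripts were higher in the follicular phase, among them its most abundant XM_013966929.2 (39.9 ± 5.39 against 54.1 ± 3.85, log2 fold change -0.45, limma adjusted p = 0.0120). XR_001919626.1 of SRSF2 was at 4.81 ± 0.703 against 8.93 ± 1.62 (log2 fold change -0.87, limma adjusted p = 0.00371) and XM_005679280.3 of HNRNPA2B1 at 9.23 ± 1.004 against 13.7 ± 1.48 (log2 fold change -0.56, limma adjusted p = 0.00571). SRSF7, SF3B1, SF3B2, HNRNPM and HNRNPH3 were called as genes but had no called transcript. SF3B3, SF3B4 and SRSF9 were too, but each has 1 transcript, so the values are the same and only the set of features in the fit and in the adjustment differed.

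The share of each transcript in its gene was tested for 136 transcripts of the 31 members with at least 2 transcripts. None was called by limma (0.711% of the 19701 shares tested over all genes were, 0.274% as higher in the luteal and 0.437% as higher in the follicular phase). An unadjusted limma p under 0.05 was found for 16 member shares, and the matching percentage over all genes was not counted. With a pseudocount of 1 the share of XM_013966925.2 of HNRNPC was called. The share with the smallest p, named after its values were seen, was that of XM_018057447.1 of SNRPB, which held 60.9 ± 2.26% of the FPKM of the gene in the luteal and 70.8 ± 2.92% in the follicular phase, without overlap between the phases (limma adjusted p = 0.213). The gene level of SNRPB overlapped between the phases. SNRPB has 2 transcripts, so the share of the other is the remainder and no separate result. How often shares of all genes did not overlap was not counted.

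Some member transcripts had a pair of separate levels that did not follow the phase. They did so about as often as transcripts of all genes. A gap of at least 4-fold, with at least 2 ovaries on each side, was found in 10 of the 156 tested member transcripts (6.41%), in 6 genes, and in 2038 of all 32842 transcripts (6.21%). This measure was chosen after the values were seen. XM_018050966.1 of HNRNPM was at 39.5 to 59.5 in 7 ovaries and at 3.65 to 6.84 in luteal phase ovary 3 and follicular phase ovaries 1 and 3. In the same 3 ovaries XM_018050961.1 and XM_018050962.1 of HNRNPM were at 1.74 to 2.51 and 1.78 to 2.21, against at most 0.322 and 0.321 in the others. XM_018051773.1 of HNRNPK was at 151 to 199 in luteal phase ovaries 2 and 4 and follicular phase ovary 4, and at 1.23 to 4.19 in the other 7. These 3 ovaries and follicular phase ovary 2 had the 4 highest HNRNPK levels. XR_001919385.1 of SF3B1 was at 33.9 to 65.7 in 6 ovaries and at 0.0811 to 6.82 in luteal phase ovaries 1, 2 and 4 and follicular phase ovary 3. XM_018054030.1 of SRSF5 was at 10.2 to 14.8 in 4 ovaries, 2 of each phase, and XM_005684878.3 of SF3B5 was at 34.4 in luteal phase ovary 3 and 25.4 in follicular phase ovary 3 only. Both sides of the gap held ovaries of both phases in each of these transcripts.

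**Figure D4:**
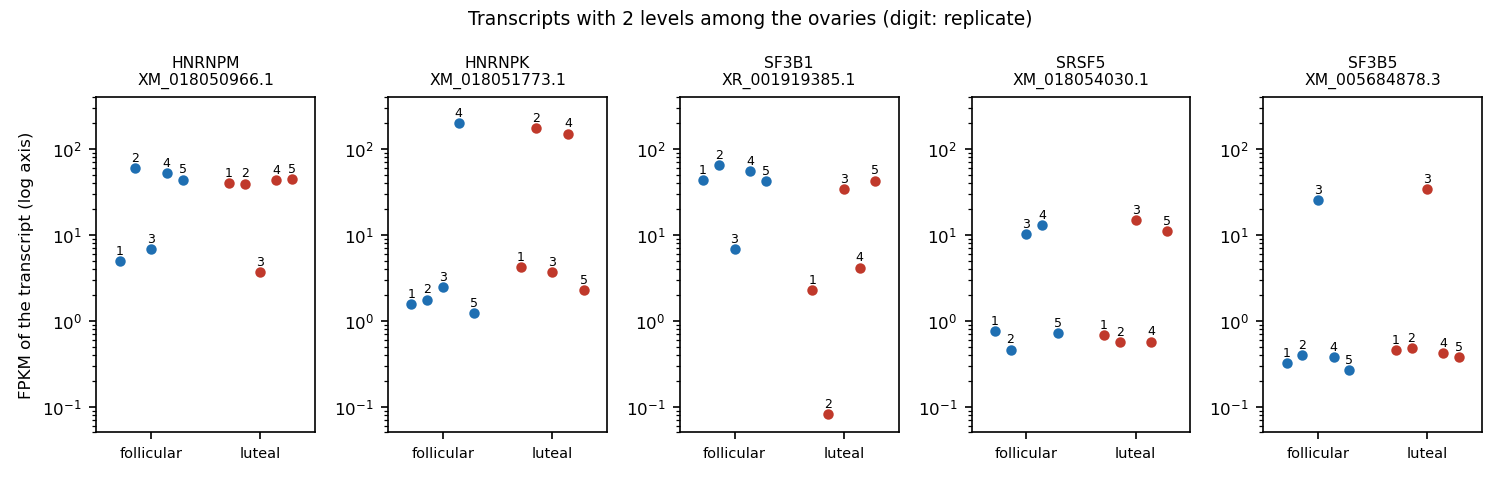
The pattern was found in 6.41% of member transcripts and 6.21% of all transcripts. Plotted are the FPKM on a log axis of 5 transcripts of splicing factor genes in each ovary (digits are replicate numbers). Each transcript had an upper and a lower level at least 4-fold apart, and each level held ovaries of both phases, as for XM_018051773.1 of HNRNPK at 151 to 199 in 3 ovaries and 1.23 to 4.19 in 7.

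Other genes of the pathway were examined as 6 lists with 129 genes in the table, of which 127 were tested. There were 71 genes higher in the follicular phase (55.9%, against 27.8% of all genes tested) and 4 higher in the luteal phase (3.15%, against 15.9%), and the median log2 fold change was -0.28. After the shift to a common median 40 were higher in the follicular phase (19.9% of all genes tested), as TPM 37 (16.99%), and with the most abundant transcript per gene 46 (19.4%). The 14 partners of U1, U2 and the branch point had 10 genes higher in the follicular phase, among them ZRSR2 (3.57 ± 0.641 against 4.96 ± 0.440, log2 fold change -0.48, limma adjusted p = 0.0127) and SF1, which binds the branch point before the U2 snRNP (15.9 ± 1.49 against 21.7 ± 2.06, log2 fold change -0.45, limma adjusted p = 0.00211). UHMK1, a kinase that phosphorylates SF1, went the other way in the same list. Its FPKM was 18.9, 19.3, 20.3, 18.3 and 21.05 in the luteal and 13.6, 11.3, 12.5, 12.4 and 11.7 in the follicular phase ovaries, so every luteal phase ovary was above every follicular phase ovary (log2 fold change 0.66, SE 0.07, limma adjusted p = 4.40e-05). The list for the U4/U6.U5 tri-snRNP and its assembly had 12 of 24 genes higher in the follicular phase. It was led by LSM7 (50.1 ± 4.94 against 71.02 ± 14.3, log2 fold change -0.49, limma adjusted p = 0.0110), CD2BP2 (42.6 ± 5.47 against 59.7 ± 8.60, log2 fold change -0.48, limma adjusted p = 0.00722) and PRPF4 (11.4 ± 1.47 against 15.6 ± 1.07, log2 fold change -0.45, limma adjusted p = 0.00254). The Prp19 complex (NTC) and catalytic step factors had 11 of 21, led by SNW1 (40.1 ± 1.97 against 54.1 ± 1.48, log2 fold change -0.43, limma adjusted p = 0.000167), XAB2 (10.6 ± 0.339 against 14.3 ± 1.43, log2 fold change -0.41, limma adjusted p = 0.00204) and RBM22 (9.34 ± 0.691 against 11.9 ± 0.526, log2 fold change -0.35, limma adjusted p = 0.00313).

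The kinases that phosphorylate SR proteins and the SR-related proteins had 11 of 18 genes higher in the follicular phase and none higher in the luteal phase, against 27.8% and 15.9% of all genes tested. SRPK1, the cytoplasmic SR protein kinase, was at 16.3 ± 0.9001 against 22.9 ± 2.81 (log2 fold change -0.48, limma adjusted p = 0.00154), DYRK1A at 18.5 ± 0.781 against 24.8 ± 1.19 (log2 fold change -0.42, limma adjusted p = 0.000327) and CLK1, a nuclear SR protein kinase, at 171 ± 13.05 against 232 ± 47.7 (log2 fold change -0.42, limma adjusted p = 0.0248). Of the 16 factors that assemble Sm rings and snRNPs, 7 were higher in the follicular phase (43.75%). PRMT5, which methylates Sm proteins, and its partner WDR77 were among them, at 16.5 ± 1.79 against 25.4 ± 6.33 (log2 fold change -0.59, limma adjusted p = 0.00828) and 4.44 ± 0.506 against 6.48 ± 1.76 (log2 fold change -0.51, limma adjusted p = 0.0223), as was GEMIN5 (6.04 ± 1.12 against 8.54 ± 1.90, log2 fold change -0.49, limma adjusted p = 0.0311).

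The hnRNPs and RNA-binding regulators that carry other names had 20 of 34 tested genes higher in the follicular phase and 3 higher in the luteal phase, against 27.8% and 15.9% of all genes tested. CELF2 was at 3.71 ± 0.787 against 6.61 ± 1.37 (log2 fold change -0.81, limma adjusted p = 0.00365) and ESRP1, an epithelial splicing regulator of low level, at 0.205 ± 0.137 against 0.518 ± 0.278 (log2 fold change -1.001, limma adjusted p = 0.0369). The 3 genes higher in the luteal phase were RBM20, MBNL1 and MBNL2, of which both MBNL genes were chosen after their values were seen. RBM20, known as a splicing regulator of muscle genes, was at 1.25, 0.822, 0.567, 0.590 and 0.665 in the luteal and 0.235, 0.210, 0.149, 0.106 and 0.207 in the follicular phase ovaries, without overlap (log2 fold change 1.61, SE 0.23, limma adjusted p = 0.000326), although all its values were low. MBNL1 was at 78.6, 86.7, 79.5, 77.3 and 77.6 in the luteal and 61.1, 59.6, 62.01, 64.1 and 68.1 in the follicular phase ovaries (log2 fold change 0.34, SE 0.06, limma adjusted p = 0.00107), and MBNL2, its paralog, was at 38.2, 48.02, 39.2, 43.7 and 42.2 in the luteal and 33.1, 25.98, 30.1, 35.8 and 33.02 in the follicular phase ovaries. The test of MBNL2 gave a log2 fold change of 0.42 (SE 0.09, limma adjusted p = 0.00444). In MBNL1 and MBNL2, muscleblind genes that are known to switch fetal to adult exon patterns, every luteal phase ovary was above every follicular phase ovary. The third gene of the family, MBNL3, was not called. Its mean was lower in the luteal phase (3.05 ± 1.28 against 4.29 ± 0.975, log2 fold change -0.54, SE 0.28, limma adjusted p = 0.131). RBFOX1 and RBFOX3 were below the filter, and LUC7L2, ISY1, TRA2B and SMN1 were not analysed here.

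**Figure D5:**
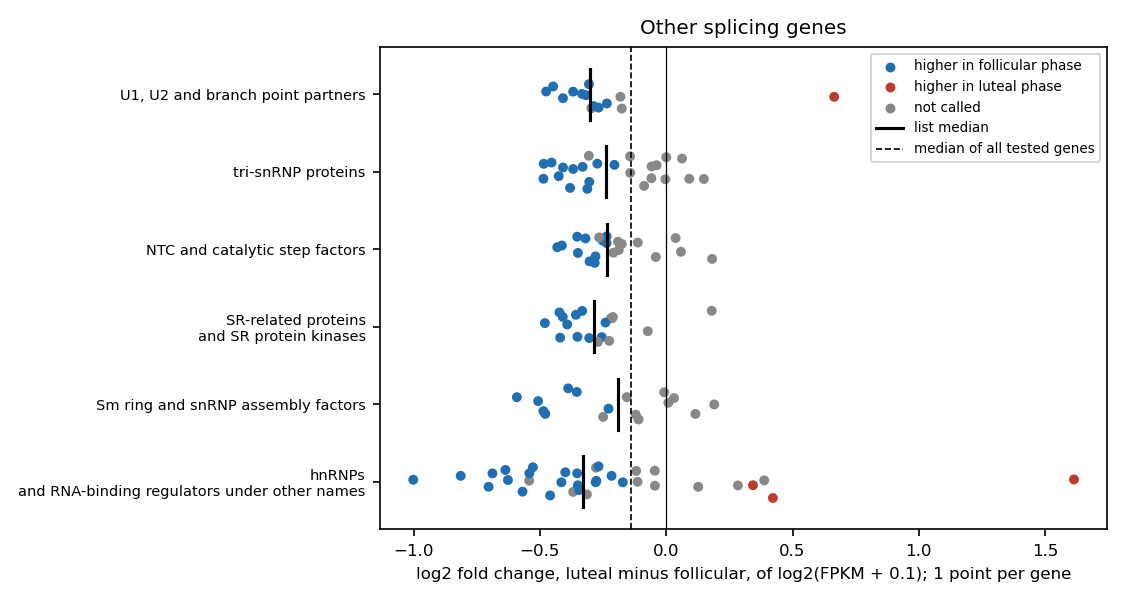
Log2 fold change, luteal minus follicular, of the 127 tested genes in 6 further lists of the splicing pathway (1 point per gene, coloured by call; the thick bar is the median of a list and the dashed line the median of all genes tested, -0.14). Of these, 71 were called higher in the follicular phase and 4 (UHMK1, RBM20, MBNL1 and MBNL2) in the luteal phase.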

How the data were processed

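Whole ovaries of Anhui white goats, 5 in the luteal and 5 in the follicular phase, were grouped by the sample titles. The authors aligned clean paired-end reads with HISAT2 2.0.4, assembled transcripts with StringTie 1.3.1 and computed with Cuffdiff 2.1.1 the deposited FPKM of each transcript in each ovary, without pooling. The genome build is not given in the sources used here. Read counts were not used, so the depth per ovary is unknown, and the 5 ovaries per phase are the only measure of precision. Whether the ovaries came from 10 different goats is not stated.

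FPKM were summed by symbol and analysed as log2(FPKM + 0.1), a scale that understates changes of low genes. Genes, transcripts and shares of transcripts (transcript against the rest of its gene) that reached an FPKM of 0.1 in 5 or more ovaries (for shares, also a gene sum of 1) were tested with limma 3.58.1 (lmFit, eBayes with trend) in R 4.3.3 without covariates, two-sided. Adjusted p-values are those of Benjamini and Hochberg over all features of each kind. Summaries and plots used Python 3.11.15, numpy 2.4.6, pandas 2.3.3 and matplotlib 3.10.9. The members and lists were chosen with earlier results of these data known. All 51 members were named, and of each further list up to 3 called genes of largest change. Outside this rule, MBNL1 and MBNL2 (with MBNL3 of the same family) were added after their values were seen, because only 4 genes of the further lists were higher in the luteal phase. All 51 members were found by gene ID in the RefSeq annotation of the assembly ARS1.2, which gave the gene neighbours. Alternatives were other pseudocounts, filters, scalings, variance models, a replicate block, the most abundant transcript per symbol, and leaving out ovaries.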

Additional observations from a re-analysis of the deposited data

Results flagged for a closer look

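In 6 of 102 groups of 5 ovaries (51 genes in each phase), 1 ovary lay so far from the other 4 that its gap to the nearest of them, as a part of the range of the group, was above the 95% critical value of Dixon for 5 samples. By the definition of that value, chance gives about 1 such group in 20 when groups are independent, and genes measured in the same ovaries are not independent. Follicular phase ovary 2 was the highest in 4 of the 6. HNRNPA1 was at 1476 FPKM there against 1172 to 1249.8 in the other follicular phase ovaries, HNRNPH1 at 289 against 207 to 223, HNRNPR at 106 against 88.0 to 92.3, and SNRPB at 103 against 62.5 to 73.3. For HNRNPM, luteal phase ovary 3 was the lowest, at 54.4 against 67.0 to 71.5. For SF3A2, luteal phase ovary 5 was the highest of its phase, at 5.60 against 4.41 to 4.48. The calls of HNRNPA1, HNRNPH1, HNRNPR, HNRNPM and SF3A2 were kept when any 1 ovary was left out, and SNRPB was not called with or without these ovaries.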

How the results depend on the processing

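The number of members higher in the follicular phase (with the share of all genes tested) was 28 with pseudocounts of 1 (27.4%) and 0.01 (27.6%) and without a filter (21.5%), 29 with a minimum FPKM of 0.5 (29.5%), 36 after quantile normalization (24.4%), 21 as TPM (16.99%), 26 without the trend in the variance (27.3%), 23 with the most abundant transcript per symbol (19.4%) and 17 after the shift to a common median (19.9%). HNRNPH2 was higher in the luteal phase under each of these, and as TPM there were 2 such members, the other being SF3B5. Leaving out 1 ovary gave 25 to 30 members higher in the follicular phase (21.9% to 29.4% of all genes tested) and 1 to 1 in the luteal phase. Of the 29 called members, 17 were called under all 3 scalings and 26 in all 10 fits that left out 1 ovary (all but HNRNPA3, SF3B3 and SRSF9). Over these 10 fits and the 11 other alternatives, which include the scalings, 14 kept their call. The fit without both luteal phase ovary 3 and follicular phase ovary 2 is not counted in this. Of the uncalled genes, SRSF2 was called without luteal phase ovary 2 or 5 or follicular phase ovary 2, SRSF4 and HNRNPUL2 without luteal phase ovary 5 or follicular phase ovary 2, HNRNPC and SRSF1 without follicular phase ovary 5, and SNRPD3 without follicular phase ovary 3.

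Beside the same shares of all genes, the further lists had 71 genes higher in the follicular phase, 40 after the shift to a common median, 37 as TPM, 46 with the most abundant transcript per symbol and 58 to 67 when 1 ovary was left out. The 4 higher in the luteal phase (15.9% of all genes tested) became 7 as TPM (18.8%) and 4 to 5 when 1 ovary was left out (13.9% to 16.3%). The 36 called member transcripts (17.3% of all transcripts tested) became 18 after the shift (14.6%), 23 as TPM (14.05%), 42 after quantile normalization (16.8%), 23 without the trend (15.5%), 26 without luteal phase ovary 3 and follicular phase ovary 2 (16.5%) and 29 to 37 when 1 ovary was left out (12.7% to 16.99%). No share was called (0 to 0 when 1 ovary was left out) except 1 with a pseudocount of 1. The sign of the log2 fold change turned for HNRNPL (0.021 after the shift, 0.035 as TPM), SNRPN (0.047 and 0.0603), HNRNPA2B1 (-0.041 after quantile normalization) and, with the most abundant transcript, HNRNPM (0.26) and SF3B1 (0.16). With ovaries left out it ran from -0.017 (without luteal phase ovary 5) to 0.15 for HNRNPA2B1, from -0.23 to 0.082 for HNRNPAB and from -0.21 to 0.024 for SNRPB, where the highest value of each came without luteal phase ovary 3 and follicular phase ovary 2 together, a choice made after seeing the data. The causes of these shifts were not tested. The filter kept every member, so it did not bear on which members were tested. The fit labelled as all mRNA rows, which is counted among the alternatives, took the same protein-coding rows as the main fit. It was identical by construction and tested nothing further.

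Whether ovaries of the same replicate number in the 2 phases were paired is not stated. The correlations of their deviations from the phase means were 0.03, 0.20, 0.19, 0.09 and 0.04 for numbers 1 to 5. Only luteal phase ovaries 2 and 4 correlated best with their own number. These few correlations cannot exclude a pairing. With a replicate block, 31 members were higher in the follicular phase (29.2% of all genes tested) and 2 in the luteal phase (16.5%), where SF3B5 joined HNRNPH2.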

Other observations

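HNRNPF, a relative of HNRNPH1, appears in the table only as 9 transcripts typed as lncRNA and was therefore not counted among the protein-coding members. The most abundant of these was at 52.7, 58.6, 48.1, 49.7 and 45.9 in luteal phase ovaries 1 to 5 and at 52.2, 85.1, 54.3, 60.04 and 44.8 in follicular phase ovaries 1 to 5, with overlapping phases and no call (limma adjusted p = 0.447). Of the 9, XR_001917403.1 was called higher in the follicular phase, at 3.88 ± 1.34 against 6.74 ± 1.20 in the luteal and follicular phase (log2 fold change -0.84, limma adjusted p = 0.0350). Among the members, XM_018050971.1 of HNRNPM, which did not pass the filter, was at 16.9 to 31.9 in luteal phase ovary 3 and follicular phase ovaries 1 and 3 and listed at 0 in the other 7 ovaries.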
